A study of Sus scrofa domesticus with 36 samples.

Results

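SGK2, PPP1R1B, PTPRU, CLDN4, ITIH3 and MEIOB are 6 genes that stood high in pig backfat, the subcutaneous fat of the back, and low in back muscle, and whose known roles lie outside lipid handling. They are 6 of 25322 genes counted. They were picked for the size of their excess in backfat over muscle, with no stated threshold, so that excess is given below as a description and was not tested. The question put to the data was what each of them followed from pig to pig within backfat: genes of adipocytes, of stroma, of epithelium or of other cells. PPP1R1B followed the adipocyte genes. ITIH3 followed endothelial genes most closely, but short of the threshold used. CLDN4, a gene of epithelial tight junctions, had a correlation near 0 with the epithelial genes.

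RNA was sequenced from subcutaneous backfat, taken between rib 8 and the last rib, and from longissimus dorsi, a large back muscle, of 18 pigs, with 1 library per tissue and pig. All were Danbred 600 × Newsham NC32 pigs per the growth protocol, while the breed label itself runs through other NC numbers from sample to sample. Sampling was 3 weeks after weaning per the study's design text, whereas the labels give an age of 16 to 17 days and the stage weaning, so the age at sampling is uncertain. The pigs came from the slowest growers (up to percentile 10) and from percentiles 60 to 70 of 1054 pigs, and since the class of each pig is not given in the labels used here, growth classes were not compared. Pigs are named as in the labels (Sample_889 and so on), and each library is a separate animal within its tissue.

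The 6 genes encode proteins of different kinds. SGK2 is a serine/threonine kinase of the serum- and glucocorticoid-regulated family, related to AKT and known for its action on ion channels and transporters. PPP1R1B encodes DARPP-32, best known from dopamine-responsive neurons of the striatum, where phosphorylation by protein kinase A turns it into an inhibitor of protein phosphatase 1. PTPRU is a receptor-type tyrosine phosphatase of the subfamily that takes part in cell-cell adhesion. CLDN4 is a claudin, a membrane protein that seals tight junctions between epithelial cells. ITIH3 is a heavy chain of the inter-alpha-trypsin inhibitor family, secreted proteins that attach to hyaluronan and stabilise matrix. MEIOB binds single-stranded DNA in meiotic recombination, and in mouse it acts in germ cells together with SPATA22.

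Backfat libraries held 2990913 to 5373406 gene counts and muscle libraries 4716541 to 6216459. Levels are counts-per-million (CPM) after trimmed-mean scaling, and since gene lengths were not used, levels are not compared between genes. As a sum, the adipocyte markers went with the tissue label. The 13 of 19 listed genes with a row summed to between 1843 and 3565 CPM in backfat and to between 366 and 784 CPM in muscle. Listed markers such as ADIPOQ, FABP4 and LEP had no row matched by symbol. Single markers differed: GPAM averaged 27.1 CPM in backfat and 31.4 CPM in muscle, and PLIN4 375 and 283 CPM. PLIN1, the coat protein of the lipid droplet, averaged 460 ± 108 CPM in backfat (SD, n = 18) and 5.45 CPM in muscle. Among the 13 genes with a row, the one near 0 in backfat was ADRB3, with a mean of 0.201 CPM. Backfat also carried variable muscle RNA, since ACTA1, the skeletal muscle actin, ran from 52.4 to 17526 CPM over the backfat libraries, with a median of 644 CPM.

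In every one of the 18 pigs, all 6 genes were higher in backfat than in muscle, and for none of them did the backfat and muscle libraries overlap. The share of all genes that separate in this way was not worked out, so this separation is a description without a background. Of 12542 genes tested, 46.7% were called higher in backfat, and because these 6 were chosen on the same contrast nothing is read from their count. In bulk tissue, fewer cells of a type and less RNA per cell cannot be told apart.

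SGK2 (ENSSSCG00000024325) ran from 60.5 CPM (pig Sample_491) through a median of 124 to 328 CPM (pig Sample_889) in backfat, and from 0 through a median of 0.824 to 4.03 CPM (pig Sample_889) in muscle. The lowest backfat library thus lay far above the highest muscle library, and 2 muscle libraries had no count at all. Means were 138 ± 63.5 CPM in backfat and 1.02 ± 0.866 CPM in muscle (SD, n = 18 each), with a log2 difference, backfat minus muscle, of 7.04 (SE 0.271). PPP1R1B (ENSSSCG00000017498) ran from 109 CPM (pig Sample_491) through a median of 149 to 308 CPM (pig Sample_889) in backfat, and from 0.864 through 2.49 to 10.4 CPM (pig Sample_889) in muscle. In both tissues the same pig, Sample_889, was the highest for both genes. Means of PPP1R1B were 157 ± 47.2 CPM in backfat and 2.99 ± 2.204 CPM in muscle (SD, n = 18 each; log2 difference 5.70, SE 0.217).

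PTPRU (ENSSSCG00000003590) ran from 35.4 CPM (pig Sample_491) through a median of 63.7 to 98.9 CPM (pig Sample_656) in backfat, and from 0.601 through 1.98 to 6.33 CPM (pig Sample_889) in muscle. It averaged 61.8 ± 16.5 CPM in backfat and 2.26 ± 1.33 CPM in muscle (SD, n = 18 each; log2 difference 4.73, SE 0.185). The highest library, Sample_656, was also the shallowest of the backfat libraries. CLDN4 (ENSSSCG00000007718) ran from 9.39 CPM (pig Sample_991) through a median of 53.6 to 141 CPM (pig Sample_114) in backfat, and from 0 through 0.631 to 2.30 CPM (pig Sample_889) in muscle, where 3 libraries had no count. Its backfat libraries thus spanned a 15-fold range, the widest of the 6 genes. Means of CLDN4 were 54.3 ± 33.9 CPM in backfat and 0.639 ± 0.533 CPM in muscle (SD, n = 18 each; log2 difference 6.38, SE 0.378).

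ITIH3 (ENSSSCG00000011451) ran from 28.4 CPM (pig Sample_991) through a median of 91.5 to 175.8 CPM (pig Sample_176) in backfat, and from 0.986 through 2.24 to 7.21 CPM (pig Sample_176) in muscle. One pig, Sample_176, was the highest in both tissues. Means were 95.4 ± 43.9 CPM in backfat and 2.80 ± 1.66 CPM in muscle (SD, n = 18 each; log2 difference 5.09, SE 0.259). MEIOB (ENSSSCG00000025711) ran from 17.5 CPM (pig Sample_491) through a median of 51.3 to 85.3 CPM (pig Sample_889) in backfat, and from 0.683 through 1.64 to 3.70 CPM (pig Sample_242) in muscle. Pig Sample_491 was the lowest backfat library for MEIOB, as it was for SGK2, PPP1R1B and PTPRU. Means of MEIOB were 51.0 ± 17.9 CPM in backfat and 1.84 ± 0.787 CPM in muscle (SD, n = 18 each; log2 difference 4.76, SE 0.198). The muscle values rest on few counts, with a median of 3 counts per library for SGK2, 7.5 for PPP1R1B, 6 for PTPRU, 2 for CLDN4, 7 for ITIH3 and 5 for MEIOB. Scaled by library totals only, each difference was larger (SGK2 8.38, MEIOB 6.12), and the median over all genes was 1.505, against 0.14 with trimmed-mean factors.

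**Figure D1:**
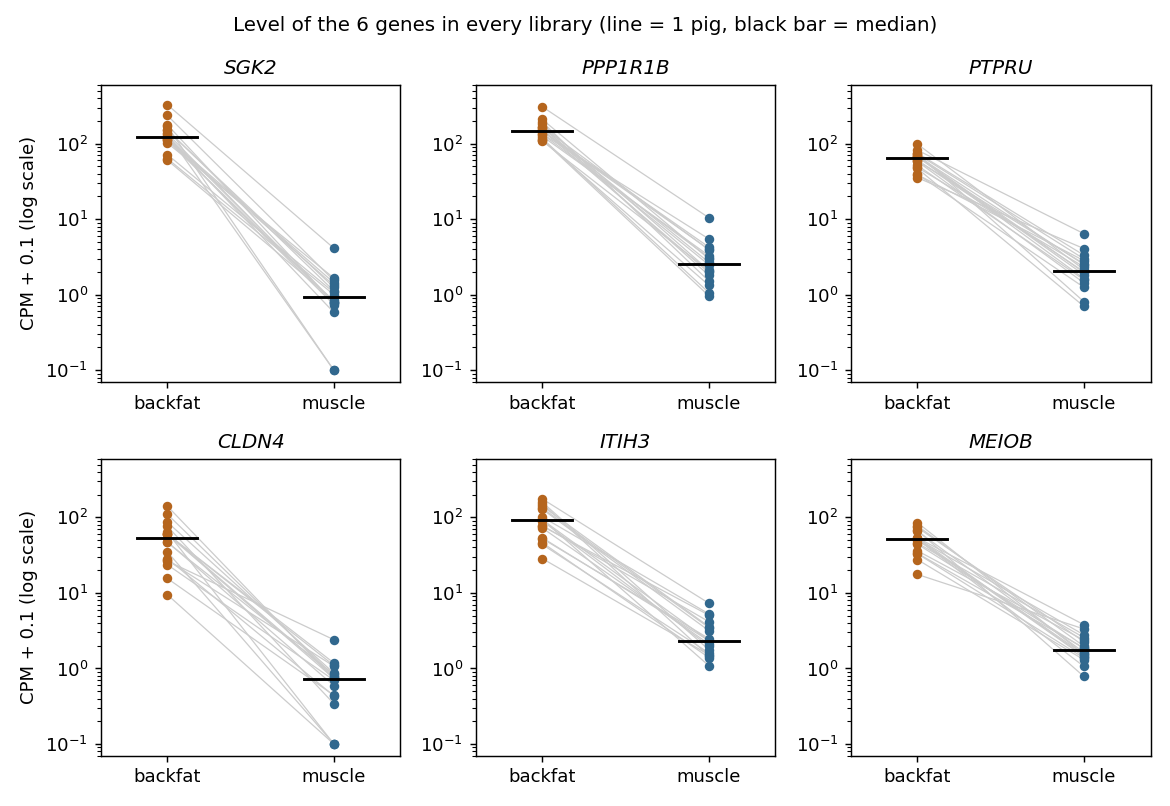
Level of the 6 genes in 18 backfat libraries (left in each panel) and 18 muscle libraries (right), as CPM + 0.1 on a log axis; each point is a library, each grey line joins the libraries of 1 pig and the black bar is the median. Every line slopes down to muscle, and the backfat points of CLDN4 spread over a 15-fold range, against a 2.80-fold range for PTPRU.

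The genes differed in how much they varied from pig to pig within backfat. The SD of log2 CPM over the 18 backfat libraries was 0.98 for CLDN4, wider than 97.8% of genes of like level, and 0.73 for ITIH3, wider than 94.8%. SGK2 had an SD of 0.60 and MEIOB one of 0.57. PTPRU and PPP1R1B were the steadiest, with SDs of 0.40 and 0.37. The range from the lowest to the highest backfat library was 6.19-fold for ITIH3, 5.42-fold for SGK2, 4.88-fold for MEIOB and 2.84-fold for PPP1R1B. These spreads are descriptions, with no test between genes.

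To see what each gene followed within backfat, its log2 CPM was correlated over the 18 backfat libraries with scores of 14 marker lists. A score is the mean of the list's genes after each was standardised over the libraries, without any of the 6 genes. Of the 84 relations of the 6 genes to the 14 lists, 1 passed an adjusted p of 0.05 by Spearman's rho (permutation test, two-sided, adjusted over 176428 relations of all genes tested), against 1.43% of all those relations, and 10 had an unadjusted p under 0.05. By Pearson's r under the same permutations 2 passed, and by edgeR's slope on the list score 2 passed.

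**Figure D2:**
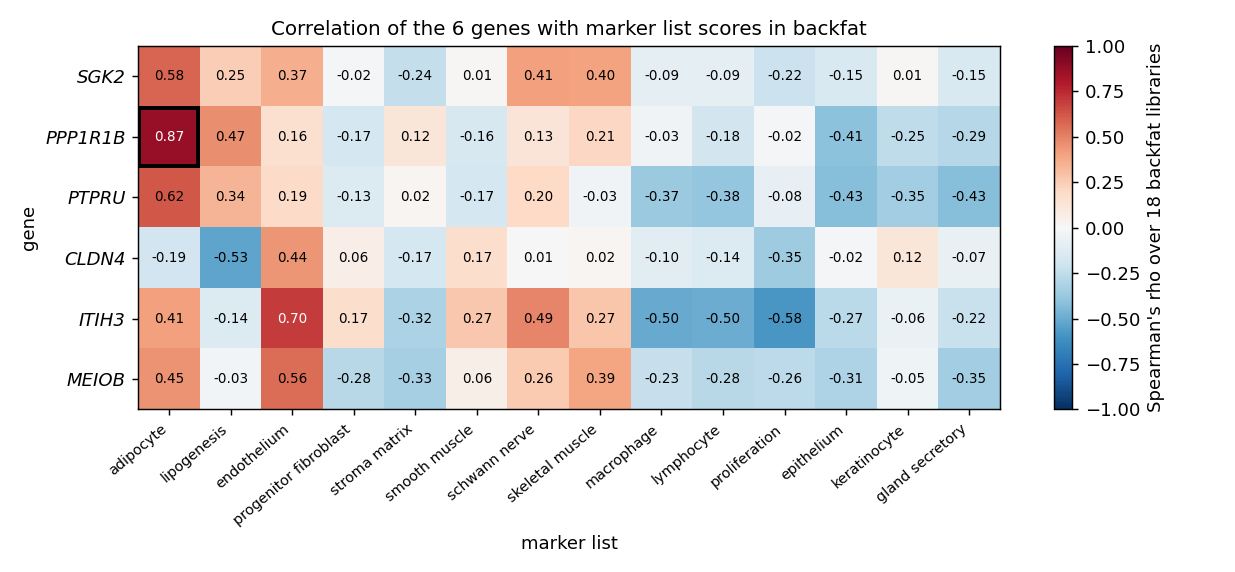
Spearman's rho over the 18 backfat libraries between each of the 6 genes (rows) and the score of each of 14 marker lists (columns); colour gives rho from -1 to 1 and the black frame marks an adjusted p under 0.05. The framed cell is PPP1R1B with the adipocyte list, at 0.87, and the next highest is ITIH3 with the endothelium list, at 0.70.

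PPP1R1B followed the adipocyte list. Its rho with the score of 12 adipocyte genes was 0.868 (permutation adjusted p = 0.00325; the unadjusted permutation p, 1e-05, is the lowest that 100000 permutations allow). Pearson's r was 0.814 (permutation p, adjusted, = 0.00371), and 0.773 without the 2 pigs farthest from the median score. Of 12602 genes tested against this list, 0.627% were called positive. PPP1R1B was lowest, at 109 CPM, in pig Sample_491, which also had the lowest adipocyte score, and highest, at 308 CPM, in pig Sample_889, which had the highest. Its level was 0.32 log2 units higher per SD of the score by edgeR (SE 0.0558, adjusted p = 0.00203).

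PPP1R1B correlated positively with 11 of the 12 adipocyte genes. The closest was LIPE, hormone-sensitive lipase, at a rho of 0.86, followed by PLIN1 at 0.83. The exception was CFD, which encodes the secreted protease adipsin, at -0.35. With the list of fatty acid synthesis genes, PPP1R1B had a rho of 0.47 (permutation adjusted p = 0.391) and with the stroma list, with which 1.04% of genes were called positive, one of 0.12 (permutation adjusted p = 0.891). With the epithelium list its rho was -0.41 (permutation adjusted p = 0.478). The adipocyte relation passed in each of 18 runs that left out 1 pig, with a rho between 0.850 and 0.912. With the ACTA1 level removed, rho was 0.833 (permutation adjusted p = 0.00629), and without the 4 pigs with most ACTA1 in backfat it was 0.890 (permutation adjusted p = 0.0160).

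SGK2 and PTPRU leaned the same way without passing. PTPRU had a rho of 0.624 with the adipocyte list (permutation p = 0.0069, adjusted p = 0.163; Pearson's r 0.645, permutation adjusted p = 0.0979, and 0.614 without 2 pigs). SGK2 had a rho of 0.583 (permutation p = 0.0127, adjusted p = 0.215; r 0.612, permutation adjusted p = 0.129, and 0.539 without 2 pigs). SGK2 correlated positively with all 12 adipocyte genes, from 0.08 for CFD to 0.73 for LIPE, and PTPRU with 11 of 12. By edgeR's slope SGK2 was 0.38 log2 units higher per SD of the score (SE 0.108, adjusted p = 0.0656) and PTPRU 0.25 (SE 0.0763, adjusted p = 0.0871). SGK2 also had a rho of 0.474 with ACTA1 over the backfat libraries, a value given without a test. Its rho with the skeletal muscle list, which holds ACTA1, was 0.40 and did not pass (permutation adjusted p = 0.485). With the ACTA1 level removed, its rho with the adipocyte list was 0.606 (permutation adjusted p = 0.178). With the stroma list neither gene passed (rho -0.24 for SGK2, permutation adjusted p = 0.731, and 0.02 for PTPRU, permutation adjusted p = 0.984).

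ITIH3 and MEIOB lay nearest to the endothelium list. ITIH3 had a rho of 0.701 with it (permutation p = 0.0018), which did not pass at an adjusted p = 0.0833. By Pearson's r, at 0.760, it passed (permutation adjusted p = 0.0236), and r was 0.621 without the 2 pigs farthest from the median score. It also passed by edgeR's slope, at 0.54 log2 units per SD of the score (SE 0.115, adjusted p = 0.00955), and with the ACTA1 level removed (rho 0.746, permutation adjusted p = 0.0446). Leaving out 1 pig gave a rho between 0.645 and 0.782, and the relation passed without pig Sample_186 or without pig Sample_659 (permutation adjusted p = 0.0424 and 0.0371). For comparison, 1.18% of the 12602 genes were called positive with this list.

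ITIH3 correlated positively with 7 of the 8 endothelial genes, among them the junction adhesion molecule PECAM1 at 0.75 and the growth factor receptor KDR at 0.62. LYVE1, a receptor of lymphatic endothelium, was at -0.05. ITIH3 was highest, at 175.8 CPM, in pig Sample_176 and lowest, at 28.4 CPM, in pig Sample_991, and these pigs had the highest and the lowest endothelium score. Its rho with the adipocyte list was 0.41 and with the proliferation list -0.58 (permutation adjusted p = 0.221), and with the macrophage and lymphocyte lists it was -0.50 each. The endothelium score itself had a rho of -0.76 with the proliferation score, -0.68 with the lymphocyte score and -0.64 with the macrophage score. These relations of ITIH3 are thus not independent of each other. With the stroma list the rho of ITIH3 was -0.32 (permutation adjusted p = 0.614).

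MEIOB had a rho of 0.560 with the endothelium list (permutation p = 0.0174, adjusted p = 0.248; r 0.575, permutation adjusted p = 0.177, and 0.493 without 2 pigs). Over all 12602 genes, rho with this list ran from -0.647 at percentile 5 to 0.589 at percentile 95, a range that holds the value of MEIOB. With the first principal component of the backfat libraries removed, the rho of MEIOB with the endothelium list was 0.732 (permutation adjusted p = 0.0476). MEIOB correlated positively with all 8 endothelial genes and with all 12 adipocyte genes, and with none of the 14 stroma genes. Its rho with the adipocyte score was 0.45 (permutation adjusted p = 0.412) and with the stroma score -0.33 (permutation adjusted p = 0.599). MEIOB also had a rho of 0.463 with ACTA1. With the ACTA1 level removed, its rho with the endothelium list was 0.571.

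CLDN4 followed none of the lists past the threshold. Its rho with the epithelium list was -0.02 (permutation p = 0.94, adjusted p = 0.984; r 0.0064, permutation adjusted p = 0.995), and with keratinocyte genes it was 0.12. Of all genes, 1.33% were called positive with the epithelium list. Epithelial genes did vary strongly in these samples. The 13 genes of the list with a row summed to between 29.2 and 364 CPM in backfat (median 90.9), against 5.01 to 21.7 CPM in muscle. EPCAM, an adhesion molecule of epithelia, ran from 0 to 43.6 CPM in backfat. The 5 epithelial genes abundant enough to be tested, among them SPINT2, KRT8 and EPCAM, had rho values with CLDN4 between -0.053 and -0.001. The gland list, which summed to between 31.3 and 1775 CPM in backfat, had a rho of -0.07 with CLDN4. The epithelium score had a rho of 0.94 with the gland score and 0.91 with the keratinocyte score, so these lists are not independent. Pig Sample_114, the highest for CLDN4 at 141 CPM, had an epithelium score below the mean (-0.83), and so had Sample_991, the lowest for CLDN4 at 9.39 CPM (-0.77).

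The list farthest from 0 for CLDN4 was fatty acid synthesis, at a rho of -0.53 (permutation p = 0.026, adjusted p = 0.291; r -0.57, permutation adjusted p = 0.193, and -0.35 without 2 pigs; 0.0159% of genes were called negative with that list). That rho was -0.25 with library totals (permutation adjusted p = 0.677). The next was endothelium, at 0.44 (permutation adjusted p = 0.428). With the adipocyte list its rho was -0.19 (permutation adjusted p = 0.795). CLDN4 correlated positively with 8 of 8 endothelial genes and with 1 of 12 fatty acid synthesis genes. At 18 libraries these relations could not be told from 0 after adjustment.

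**Figure D3:**
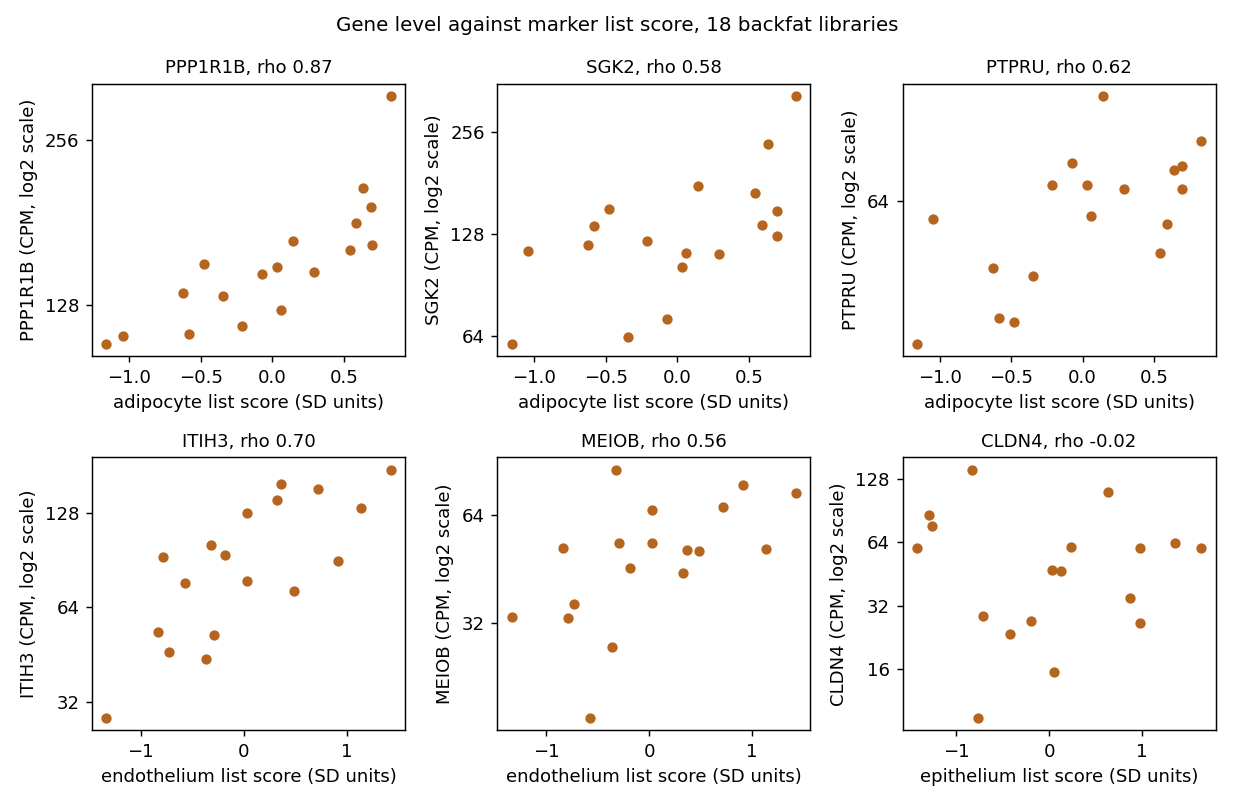
Level of each gene (CPM, log2-scaled axis) against the score of 1 marker list (in SD units) over the 18 backfat libraries; each point is a pig. PPP1R1B climbs with the adipocyte score (rho 0.87) and ITIH3 with the endothelium score (rho 0.70), while CLDN4 shows no slope on the epithelium score (rho -0.02).

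Among themselves, the 6 genes formed 15 pairs, of which SGK2 with MEIOB and SGK2 with PPP1R1B were closest. SGK2 and MEIOB had a rho of 0.734 over the 18 backfat libraries (permutation p = 0.0009). Its adjusted p was 0.0364 over all genes tested against MEIOB and 0.0989 over all genes tested against SGK2 (permutation test). Pearson's r was 0.804 (permutation adjusted p = 0.0079 against MEIOB and 0.0225 against SGK2), and 0.691 without 2 pigs. Of 12601 genes, 1.72% were called positive with MEIOB and 0.111% with SGK2. Without the 4 pigs with most ACTA1 in backfat, the rho of SGK2 with MEIOB was 0.675 (permutation adjusted p = 0.330). SGK2 with PPP1R1B had a rho of 0.715 (permutation adjusted p = 0.117 and 0.126), with an r of 0.742 that was 0.4999 without 2 pigs. PPP1R1B had a rho of 0.614 with MEIOB (permutation adjusted p = 0.237 and 0.0845) and of 0.556 with PTPRU (permutation adjusted p = 0.325 and 0.844). CLDN4 had rho values with the other 5 from -0.36 with PPP1R1B to 0.25 with ITIH3.

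MEIOB had the most correlated genes in backfat, 217 positive (1.72%) and 302 negative (2.4%) of 12601. ITIH3 had 28 positive (0.222%) and 29 negative (0.23%), PPP1R1B 36 (0.286%) and 2 (0.0159%), and SGK2 14 (0.111%) and 9 (0.0714%). For PTPRU and CLDN4 the permutation test of Spearman's rho and that of Pearson's r each called 0 genes, and 721 and 717 genes had an unadjusted p under 0.05.

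The genes with the most similar pattern over the 18 backfat libraries were listed by rho, among 6100 genes with a symbol and a mean of at least 10 CPM in backfat, as a description. Nearest to PPP1R1B were ACAA1, a peroxisomal thiolase, at 0.90, MPC2, a subunit of the mitochondrial pyruvate carrier, at 0.89, and PEX3, which is needed to build peroxisomes, at 0.87. AGPAT1, an acyltransferase of glycerolipid synthesis (0.87), and LIPE (0.86) came next. ACAA1 averaged 134 ± 43.2 CPM in backfat (SD, n = 18) and 18.6 CPM in muscle, whereas MPC2 averaged 64.7 ± 13.2 CPM in backfat (SD, n = 18) and 187 CPM in muscle. A gene could thus share the pattern within backfat without sharing the excess over muscle.

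Nearest to SGK2 were IGFBP7, a secreted binding protein of growth factors (0.86), HSD17B8, a mitochondrial dehydrogenase (0.85), LIAS, which makes lipoic acid (0.83), SCARF1, a scavenger receptor (0.81), and COASY, which makes coenzyme A (0.81). Nearest to PTPRU were GPC1, a cell-surface heparan sulfate proteoglycan (0.83), LRP3 (0.80), MYO1C, an unconventional myosin (0.79), ADAMTS7, a secreted metalloprotease (0.79), and IGFALS, a carrier protein of insulin-like growth factors (0.78).

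ITIH3 had NPR1, the receptor of atrial natriuretic peptide, at 0.91, HYAL2, a hyaluronidase, at 0.89, and PRPSAP1 at 0.87. Next to it came S1PR1, a sphingosine 1-phosphate receptor of endothelium, at 0.85, and GRB10, an adaptor of the insulin receptor, at 0.85. MEIOB had KCTD6 at 0.92, the microtubule-severing gene KATNA1 at 0.89, FNBP4 at 0.88, ZNF672 at 0.88 and the matrix metalloprotease MMP11 at 0.87. Among the genes nearest to CLDN4 were the oncostatin M receptor OSMR at 0.68, the antiviral gene ZC3HAV1 at 0.67, UBQLN1 at 0.66 and LRRC32 at 0.65.

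The partners and relatives of each gene were then read from lists of their pathways, tested between the tissues by edgeR's quasi-likelihood test with adjustment over all 12542 genes. Over all of these, 46.7% were called higher in backfat and 39.2% higher in muscle, and the median log2 difference was 0.14. For SGK2, 12 genes of the SGK and AKT kinases and their regulators were tested, of which 6 were higher in backfat, 5 higher in muscle and 1 without a call, with a median of 0.30. SGK1 averaged 66.9 ± 16.4 CPM in backfat and 40.5 ± 10.7 CPM in muscle (SD, n = 18 each; log2 difference 0.72, SE 0.118, edgeR adjusted p = 5.98e-07). MTOR, a kinase that acts upstream of the family, was lower in backfat, at -1.06 (SE 0.122). AKT2, the AKT form of insulin action, was at -0.07 (SE 0.104, edgeR adjusted p = 0.536).

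For PPP1R1B, the list of protein phosphatase 1, protein kinase A and their receptors had 3 of 10 tested genes higher in backfat and 7 higher in muscle, with a median of -1.09. The 3 higher in backfat were ADRB1 at 2.85 (SE 0.230), PDE3B at 2.65 (SE 0.199) and ADCY6 at 1.58 (SE 0.136). PPP1CB, a catalytic subunit of the phosphatase, averaged 262 ± 40.3 CPM in backfat and 919 ± 163 CPM in muscle (SD, n = 18 each; log2 difference -1.81, SE 0.0864). PPP1CC was at -1.49 (SE 0.0756), PRKACA, the catalytic subunit of protein kinase A, at -2.76 (SE 0.0946) and its regulatory subunit PRKAR1A at -0.68 (SE 0.0742). PPP1R1A, the related inhibitor of the phosphatase, ran the other way from PPP1R1B, with 0.625 ± 0.625 CPM in backfat and 31.5 ± 6.09 CPM in muscle (SD, n = 18 each; log2 difference -5.65, SE 0.226). The dopamine receptor gene DRD1 had no count in either tissue, and DRD2 averaged 0.402 CPM in backfat and 2.74 CPM in muscle. PPP1R1A, DRD1, DRD2, ADRB1, PDE3B and ADCY6 were named after their values were seen.

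For PTPRU, 8 of 9 tested phosphatase and junction genes were higher in backfat and 1, CTNNB1, did not pass (0.03, SE 0.0621), with a list median of 0.86. PTPRS, another receptor phosphatase, averaged 206 ± 41.3 CPM in backfat and 22.7 ± 6.67 CPM in muscle (SD, n = 18 each; log2 difference 3.18, SE 0.130). The catenins CTNND1 and CTNNA1 were at 0.46 (SE 0.0850) and 0.83 (SE 0.0736).

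For CLDN4, 12 tight junction genes had a row and 5 passed the filter on low counts. These 5 were higher in backfat, with a median of 1.05, but a gene can pass the filter through the tissue where it is high. CLDN11, a claudin named after its values were seen, is such a gene, with 7.11 ± 2.77 CPM in backfat and 0.523 ± 0.449 CPM in muscle (SD, n = 18 each; log2 difference 3.70, SE 0.273). Without the filter, 11 of the 12 were higher in backfat and 1 was higher in muscle. TJP1 was at 0.74 (SE 0.0828), F11R, a junction adhesion molecule, at 1.05 (SE 0.103) and OCLN, occludin, at 0.72 (SE 0.163).

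For ITIH3, 11 genes of its family and of hyaluronan were tested, of which 9 were higher in backfat, 1 higher in muscle and 1 without a call, with a median of 1.66. Here too a gene can pass the filter on low counts through the tissue where it is high. Without the filter, a setting added after seeing the data, 11 of 15 were higher in backfat, 1 higher in muscle and 3 without a call. VCAN, versican, a proteoglycan that binds hyaluronan, averaged 410 ± 139 CPM in backfat and 41.8 ± 23.2 CPM in muscle (SD, n = 18 each; log2 difference 3.29, SE 0.214). ITIH5 was at 1.66 (SE 0.116), the hyaluronan receptor CD44 at 2.05 (SE 0.183) and PTX3, which takes part in building hyaluronan matrix, at 1.09 (SE 0.325). AMBP, which encodes bikunin, the light chain of the inhibitor, averaged 0.0981 CPM in backfat and 0.036 CPM in muscle. It was named after its values were seen.

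For MEIOB, 11 meiosis and recombination genes were tested, of which 5 were higher in backfat, 3 higher in muscle and 3 without a call, with a median of 0.28. MSH4, a MutS homologue that acts in meiotic crossover formation, was lower in backfat, at -0.88 (SE 0.113), and SYCP3, of the synaptonemal complex, was higher, at 0.67 (SE 0.122). RPA1 and RPA2, which bind single-stranded DNA in all cells, did not pass (0.08, SE 0.0717, edgeR adjusted p = 0.291, and -0.14, SE 0.101, edgeR adjusted p = 0.193). SPATA22, the partner of MEIOB in mouse, averaged 0.161 CPM in backfat and 0.0124 CPM in muscle, and the meiotic recombinase gene DMC1 averaged 0.0991 CPM in backfat and had no count in muscle. Both were named after their values were seen. With library totals alone the SGK list read 10 higher in backfat and 0 higher in muscle, and the meiosis list 10 and 0. The mixed directions of these lists thus hold for trimmed-mean scaling and not for library totals. The protein phosphatase list, at 5 and 4, was mixed with library totals too.

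The labels do not state a stranded library, so the counts cannot separate a gene from one that overlaps it or runs antisense to it. In the order of genes of a Sscrofa11.1 gene table, none of the 2 nearest genes on either side overlapped any of the 6. The annotation used for counting was not given, so overlap in that annotation was not checked. ITIH3 lies between its relatives ITIH1 and ITIH4. ITIH1 shared the excess in backfat, with 6.70 ± 2.66 CPM in backfat and 0.106 ± 0.229 CPM in muscle (SD, n = 18 each; log2 difference 5.75, SE 0.357), and had a rho of 0.56 with ITIH3 over backfat. ITIH4 averaged 20.4 ± 6.41 CPM in backfat and 23.5 ± 7.77 CPM in muscle (SD, n = 18 each), and its rho with ITIH3 was 0.43. Family members with similar sequence can share reads, which was not tested here.

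The other neighbours differed in how closely they followed their gene. IFT52, beside SGK2, averaged 40.8 ± 7.94 CPM in backfat and 9.47 ± 1.94 CPM in muscle (SD, n = 18 each) and had a rho of 0.58 with it, and MYBL2, the next gene, had a rho of -0.02. STARD3 and TCAP, beside PPP1R1B, had rho values of 0.04 and 0.22 with it, and MECR, beside PTPRU, one of -0.04. ABHD11, near CLDN4, was at -0.48 with it and METTL27 at -0.07. CLDN3, the claudin next to CLDN4, had no row matched by symbol and was not analysed here, and nor were the 4 nearest genes of MEIOB.

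In muscle, 4 of the 6 genes passed a minimum of 1 CPM in at least 15 of 18 libraries. SGK2 reached 1 CPM in 7 muscle libraries and CLDN4 in 2, so both are given by their values only. PPP1R1B had a rho of 0.620 with the adipocyte score of muscle (permutation p = 0.0074, adjusted p = 0.219), and a Pearson's r of 0.768 (permutation adjusted p = 0.0314) that was 0.548 without the 2 pigs farthest from the median score. Of 11703 genes tested in muscle, 0.111% were called positive by rho. The values were 0.414 for PTPRU, 0.325 for ITIH3 and 0.234 for MEIOB, with permutation adjusted p of 0.494, 0.625 and 0.758. With the stroma score of muscle, PPP1R1B had a rho of 0.552 (permutation p = 0.0192, adjusted p = 0.293; r 0.678, permutation adjusted p = 0.0781, and 0.509 without 2 pigs). MEIOB had a rho of 0.410 with the stroma score (permutation adjusted p = 0.498), PTPRU 0.259 and ITIH3 0.183 (permutation adjusted p = 0.726 and 0.827).

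Pig Sample_889, picked out after its values were seen, had the highest muscle level of SGK2 (4.03 CPM, with 1.56 CPM in the next pig), PPP1R1B (10.4 and 5.38 CPM), PTPRU (6.33 and 3.98 CPM) and CLDN4 (2.30 and 1.08 CPM). Its muscle library also had the most PLIN1, at 29.6 CPM, and an adipocyte score of 1.54. Its stroma score, 1.55, was also the highest of the 18 muscle libraries, with 1.38 in the next pig, Sample_391. In Sample_889 the muscle level of PLIN1 was 5.16% of the backfat level, against a median of 0.704% in the 17 other pigs. The same share was 1.23% for SGK2 (median of the others 0.621%), 3.36% for PPP1R1B (1.57%), 7.70% for PTPRU (2.93%), 8.73% for CLDN4 (1.07%) and 5.11% for ITIH3 (2.79%). The highest share among the 17 other pigs was above that of Sample_889 for SGK2 (1.53%), PPP1R1B (3.998%), PTPRU (11.3%) and ITIH3 (6.50%). For PLIN1 (2.12%) and CLDN4 (3.59%) it was below that of Sample_889. The CLDN4 share of Sample_889 rests on 8 counts in muscle. Its backfat level of CLDN4, 26.4 CPM, lay below the backfat median of 53.6 CPM. The share of MEIOB was 1.69% in Sample_889, below the median of 3.87% in the others. By muscle level, adipocyte genes, stroma genes, SGK2, PPP1R1B, PTPRU and CLDN4 thus stood high together in 1 muscle library. The part of fat or connective tissue in that sample was not tested.

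**Figure D4:**
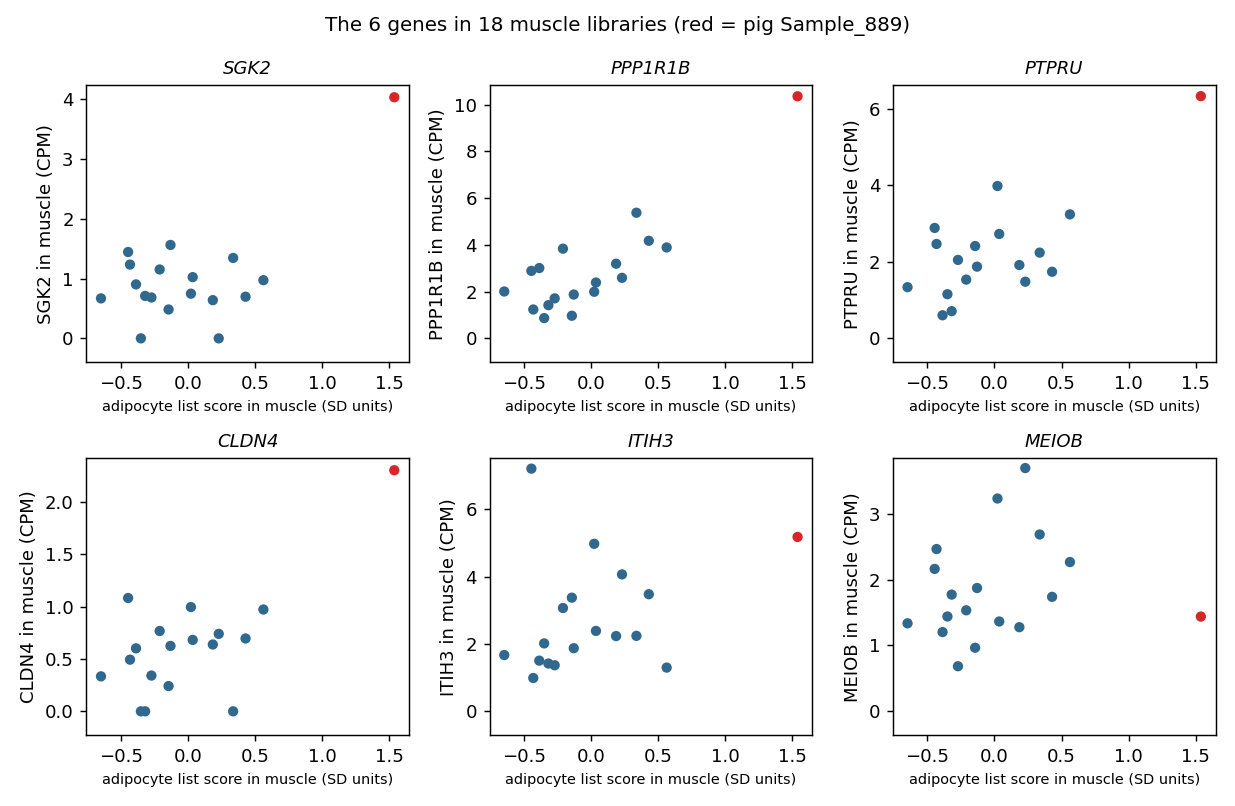
Level of each of the 6 genes in muscle (CPM, linear axis) against the adipocyte list score of the same muscle library (SD units); each point is 1 of 18 pigs and pig Sample_889 is red. Sample_889 lies at a score of 1.54 and is the highest for SGK2, PPP1R1B, PTPRU and CLDN4, but not for ITIH3 or MEIOB.

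Between the tissues of a pig, none of the 4 genes measured well enough in both passed the permutation test, by rho (lowest unadjusted p 0.180, for ITIH3) or by r (0.0156, for PPP1R1B). Of these 4, ITIH3 had a rho between tissues of 0.329, PPP1R1B 0.300, PTPRU 0.212 and MEIOB -0.04 (permutation adjusted p = 0.556, 0.606, 0.735 and 0.960). The median over all 11109 genes tested was 0.185, and 0.54% of them were called positive. For PPP1R1B Pearson's r was 0.566 (permutation adjusted p = 0.193), and 0.232 without 2 pigs. It was 0.405 for ITIH3, 0.135 for PTPRU and -0.26 for MEIOB (permutation adjusted p = 0.441, 0.853 and 0.675).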

How the data were processed

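The deposited table holds unnormalised expected counts for 25322 Ensembl pig genes in 36 libraries. MagMAX RNA was made into TruSeq libraries and read from both ends (100 nt each, HiSeq 2000), per the labels' protocols. Per the submitters' processing notes the tools were GSNAP and HTSeq (no versions), while build and annotation were not given in the sources used here. Values move in steps of 0.5, and 35.1% of values are not whole. They were rounded to whole numbers. A further 5 lines name no gene and were left out, and counts in no annotated gene averaged 34.5% ± 5.60 in backfat and 19.9% ± 4.01 in muscle (SD, n = 18 each). Unused columns numbered 0.

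Symbols were found for 11804 IDs in a table of current names. Tissues were compared with edgeR 4.0.16 in R 4.3.3 (quasi-likelihood, robust, trimmed-mean factors, tissue alone, default filter, 12542 genes, Benjamini-Hochberg adjustment). Each SE came from the log2 difference and its F statistic (difference over root F). Both libraries of a number come from 1 pig, so the numbers pair the samples by animal. Correlations took log2 CPM with a prior count of 2, over the 12602 genes that reached 1 CPM in 15 or more of 18 backfat libraries (11703 in muscle), with 100000 permutations. List scores used genes that reached 0.5 CPM in 9 or more libraries. Python 3.11.15, NumPy 2.4.6, SciPy 1.17.1, pandas 2.3.3, Matplotlib 3.10.9 and, as an alternative, DESeq2 1.42.0 were used. Scripts were tested on simulated data.

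The 6 genes and all lists were chosen with earlier results of these data known. Named besides the 6 are the 5 genes of highest rho with each (symbol, mean of at least 10 CPM), up to 4 per pathway list and 3 per marker list by level in backfat, and the 2 nearest genes on each side. This rule picks 2 further genes that are not reported here. No sequence was used.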

Additional observations from a re-analysis of the deposited data

How the results depend on the processing

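The relation of PPP1R1B to the adipocyte list passed under all 11 other settings of the correlation (rho or r 0.814 to 0.895, permutation adjusted p 0.0026 to 0.016) and by edgeR's slope. The count of relations that passed, 1, was 2 with Pearson's r, with ACTA1 removed, with the first principal component removed and by edgeR's slope, and 1 to 2 when 1 pig was left out. The second was ITIH3 with endothelium (r 0.760, 0.746 with ACTA1 removed, edgeR slope 0.54 per SD, 0.645 to 0.782 without 1 pig), or MEIOB with endothelium for the principal component. The cause was not tested.

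With the pig as a replicate block, 5944 genes were higher in backfat and 4944 higher in muscle, against 5853 and 4919 without it. The block changed no count of a pathway list. Library totals gave 10148 and 1520, and 10 and 0 for the SGK list, 5 and 4 for the protein phosphatase list and 10 and 0 for the meiosis list, because that scaling moves the median gene to 1.505. Without a filter 9077 genes were higher in backfat, among 20197 tested, and, added after seeing the data, the tight junction list had 11 higher in backfat and 1 higher in muscle and the meiosis list 11 and 3.

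Some relations, none of them called, changed sign. SGK2 with epithelium was 0.0049 at most and -0.28 at least without 1 pig, and SGK2 with skeletal muscle genes, a list that holds ACTA1, was -0.30 with ACTA1 removed, against 0.40. PPP1R1B with stroma was -0.15 by Pearson's r, -0.044 with library totals, -0.011 with ACTA1 removed and -0.10 by edgeR's slope. PTPRU with stroma was -0.11 with library totals, -0.063 with the library total removed and -0.10 to 0.20 without 1 pig. CLDN4 with epithelium was 0.0064 by Pearson's r, 0.038 with library totals, 0.0093 with ACTA1 removed, 0.0941 without pigs Sample_656 and Sample_572 and -0.10 to 0.12 without 1 pig. SGK2 with CLDN4 was 0.028 with the principal component removed, against -0.20. Without changing sign, library totals put stroma at -0.47 for SGK2, -0.51 for ITIH3 and -0.56 for MEIOB, against -0.24, -0.32 and -0.33. Muscle levels of the 6 genes are limited by depth.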
